A study of Mus musculus with 24 samples.

Results

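The collagen genes were examined in medulloblastomas of *G-Smo* and *M-Smo* mice, as the genes whose symbol is Col, a type number, the letter a and a chain number. Of 22180 genes with a probe set of their own on the array, 44 met this rule, through 47 probe sets, and of 2 probe sets for a gene the one with the higher mean was used. The symbol alone decided which genes entered, but the collagen family was chosen with earlier results of these data known. The genes were grouped by the type number into 11 fibrillar genes (types 1, 2, 3, 5, 11, 24 and 27), 8 basement membrane genes (types 4, 15 and 18) and 25 others.

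Bulk RNA was measured in 6 untreated *G-Smo* and 6 untreated *M-Smo* tumors, each harvested at P15 and hybridized to 1 Affymetrix Mouse Gene 2.1 ST array. All mice carried the oncogenic *SmoM2* allele on a C57BL/6 background. In *G-Smo* mice *hGFAP-Cre* switches it on in neural stem cells, whose descendants include several cell types of the brain, and in *M-Smo* mice *Math1-Cre* switches it on in progenitors committed to the cerebellar granule neuron lineage. The methods describe no step that separated tumor cells from stroma before the RNA was purified. A further 12 tumors, 6 of each genotype, were harvested 2 h after 10 Gy xRT, but none of the 44 collagen genes has a value in those arrays, where 1019 probe sets were given. The question was whether collagen expression differed between tumors started in stem cells and tumors started in committed progenitors.

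Collagens are the main fibrous proteins of the extracellular matrix, and each molecule is wound from chains encoded by one or several of these genes. Fibrillar collagens are secreted as procollagens, trimmed by proteases and cross-linked into banded fibrils, mostly by fibroblasts. Type IV collagen forms the sheet under endothelium and epithelium, where types XV and XVIII are anchored. Type VI collagen makes beaded filaments near basement membranes, and several further types sit on fibrils, span the plasma membrane or form lattices. In the normal brain fibrillar collagen is largely confined to the meninges and the walls of larger vessels, and the parenchyma has little collagen outside the basement membranes of its vessels.

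The values are log2 intensities after robust multi-array averaging (RMA), so a difference of 1 stands for a 2-fold change, and the levels of different genes cannot be compared because each probe set binds with its own strength. Differences are *G-Smo* minus *M-Smo*, tested with limma over all 41345 probe sets with Benjamini-Hochberg adjustment, and a gene was called where the adjusted p was below 0.05. Array medians were 6.38 to 6.42, and 2 tumors of a genotype correlated with r = 0.984 to 0.992 over all probe sets. The number of arrays limits the precision. The granule lineage tumor markers, which include *Atoh1*, *Gli1* and *Zic1*, were present in both genotypes, with a mean of 10.8 to 10.9 in *G-Smo* and 10.7 to 10.9 in *M-Smo* tumors and none of 8 called. The smallest adjusted p among them were 0.0817 for *Gli1*, with a difference of 0.21, and 0.122 for *Mki67*, with 0.15. Of the 8 differences 7 were above 0, with a median of 0.16. Before adjustment 3 of these markers had a limma p below 0.05, all higher in *G-Smo* tumors (37.5%, against 10.2% of all probe sets). *Xist*, which is expressed in female tissue, was high in 5 of 6 *G-Smo* and 2 of 6 *M-Smo* tumors. The lowest of the high values was 12.5 and the highest of the others 6.10, and the labels do not give the sex of the mice. The labels do not say whether the 6 tumors of a genotype came from separate litters, and the p-values measure the spread between these tumors.

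Collagen expression was lower in *G-Smo* tumors for 4 genes and higher for 1, and 39 genes were not called. The 4 lower genes were *Col1a1* and *Col1a2*, the chains of type I collagen, and *Col6a1* and *Col6a3*, chains of type VI collagen. The 1 higher gene was *Col11a1*, the α1 chain of type XI collagen. Over all probe sets, 2.56% were called, 1.29% as lower and 1.27% as higher in *G-Smo* tumors. The difference was below 0 for 36 of the 44 genes (81.8%), against 49.0% of all probe sets, with a median of -0.12 among the collagens and 0.0035 over all probe sets. The collagens were drawn from the 23521 probe sets with 1 gene symbol, which leaned lower. Of these 23521, 53.4% were below 0 (median -0.012), 424 were called as lower and 271 as higher. Without *G-Smo* replicate 6, the lower calls were 2, *Col1a1* and *Col6a1*, and *Col11a1* was still called. The lower calls numbered 8 with quantile normalization, 11 with dim probe sets filtered out and 10 with 1-symbol probe sets only. They numbered 0 in the tumors with high *Xist* and 0 with the replicate number as a block. *Col3a1*, *Col6a2*, *Col15a1* and *Col26a1*, the last named after its values were seen, were gained in each of the first 3 of these alternatives.

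**Figure D1:**
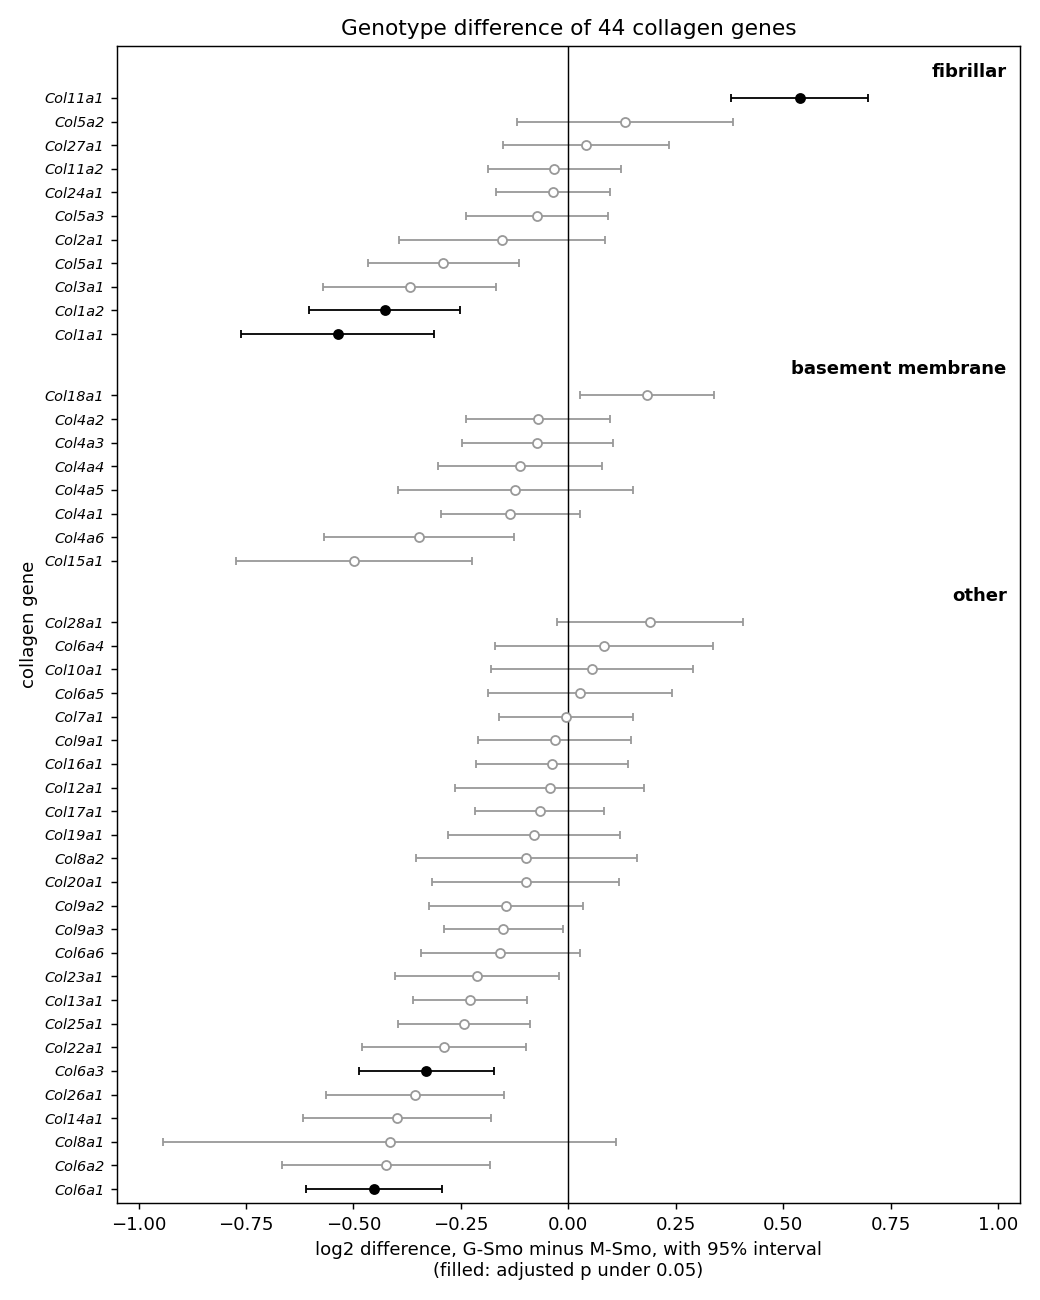
Log2 difference (*G-Smo* minus *M-Smo*, horizontal axis) of each of the 44 collagen genes (vertical axis, in 3 groups by type), with the 95% interval from limma. Filled points are the 5 genes with an adjusted p below 0.05, and most points lie left of 0.

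*Col11a1* encodes a chain of type XI collagen, a minor fibrillar collagen that sets the width of fibrils and is best known from cartilage. Its log2 intensity had a lowest value of 9.03, a median of 9.11 and a highest value of 9.20 in *G-Smo* tumors, against 8.29, 8.60 and 8.78 in *M-Smo* tumors. The lowest *G-Smo* tumor exceeded the highest *M-Smo* tumor. The difference was 0.54 ± 0.07 (SE, n = 6 each), or 1.45-fold higher, with an adjusted p of 0.00403 from limma, and it was called with each of the 12 tumors left out in turn (highest adjusted p 0.0132). Its partner in cartilage, *Col11a2*, named after its values were seen, had a median of 5.64 in *G-Smo* and 5.64 in *M-Smo* tumors and a difference of -0.03 (95% interval -0.19 to 0.12, adjusted p 0.849), and its mean lay below the 40th percentile of all probe sets. *Col2a1*, which encodes the main fibrillar collagen of cartilage and contributes to type XI molecules there, had a difference of -0.15 (-0.39 to 0.09, adjusted p 0.487).

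*Col1a1* and *Col1a2* encode the chains of type I collagen, the chief collagen of skin, bone and the meninges. *Col1a1* ran from 7.65 over a median of 7.99 to 8.02 in *G-Smo* tumors, against 8.17, 8.42 and 8.81 in *M-Smo* tumors. The difference was -0.54 ± 0.10, or 1.45-fold lower, with an adjusted p of 0.022. *Col1a2* ran from 7.53 over 7.65 to 7.75 in *G-Smo* tumors, against 7.85, 8.09 and 8.36 in *M-Smo* tumors, a difference of -0.43 ± 0.08 with an adjusted p of 0.0203. The genotypes did not overlap in either gene, which held for 1.57% of all probe sets in this direction. The second probe set of *Col1a2*, which was dim, had a difference of -0.34 (adjusted p 0.112). The call of *Col1a1* held with each tumor left out (highest adjusted p 0.0471), and that of *Col1a2* was lost without *G-Smo* replicate 6 (adjusted p 0.0502).

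Type VI collagen is assembled from one chain of each of *Col6a1*, *Col6a2* and *Col6a3*, or of a gene that stands in for *Col6a3*. *Col6a1* ran from 7.71 over 8.01 to 8.09 in *G-Smo* tumors, against 8.31, 8.41 and 8.57 in *M-Smo* tumors, a difference of -0.45 ± 0.07 with an adjusted p of 0.00984. *Col6a2* ran from 6.93 over 7.47 to 7.66 in *G-Smo* tumors, against 7.68, 7.80 and 8.03 in *M-Smo* tumors, a difference of -0.42 ± 0.11 that was not called (adjusted p 0.0661). *Col6a3* ran from 6.04 over 6.36 to 6.45 in *G-Smo* tumors, against 6.55, 6.61 and 6.71 in *M-Smo* tumors, a difference of -0.33 ± 0.07 with an adjusted p of 0.0345. In all 3 genes every *G-Smo* tumor lay below every *M-Smo* tumor. The genes that can replace *Col6a3*, named here after their values were seen, were *Col6a4* with a difference of 0.08, *Col6a5* with 0.03 and *Col6a6* with -0.16, and their adjusted p were 0.752, 0.919 and 0.339. *Col6a1* stayed called with each tumor left out (highest adjusted p 0.026), whereas *Col6a3* was called in 2 of 12 such fits, those without *G-Smo* replicate 4 or 5 (highest adjusted p 0.0774) and not when a score of sex-linked genes entered the fit (adjusted p 0.0596). The second probe set of *Col6a1* had a difference of -0.33 (adjusted p 0.12).

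**Figure D2:**
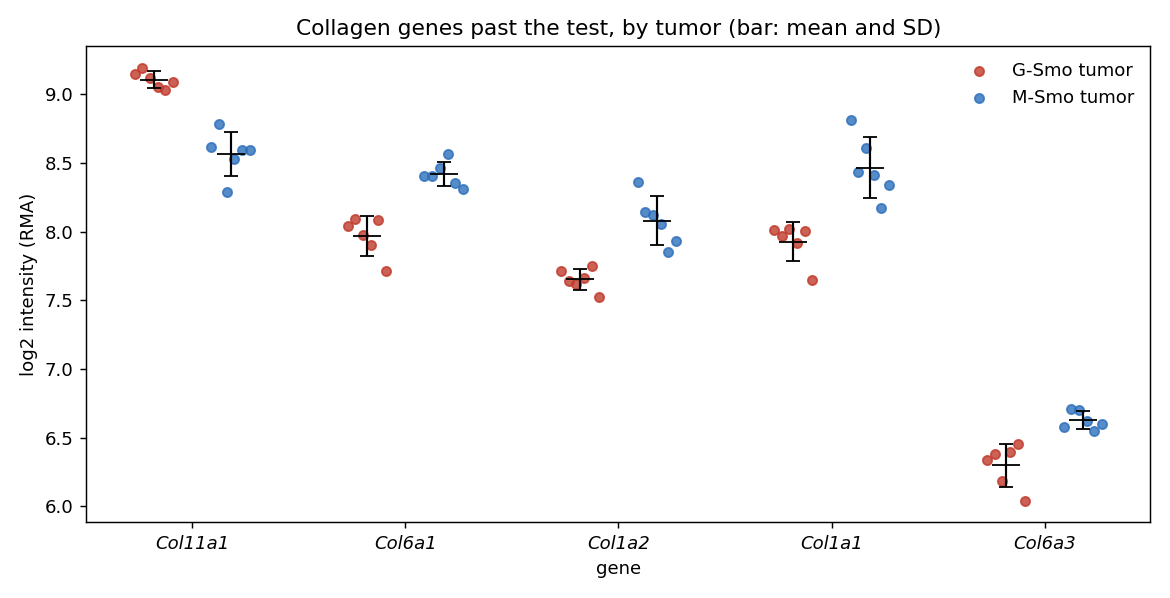
Log2 intensity (vertical axis) of the 5 called collagen genes (horizontal axis) in each *G-Smo* tumor (red, left) and each *M-Smo* tumor (blue, right), n = 6 each, with the mean and SD as black bars. The genotypes do not overlap in any of the 5 genes, and *Col11a1* alone is higher in *G-Smo* tumors.

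The start regions of the called genes are shown because 1 of them moved against the others. The windows are the 180 bases just upstream of the outermost annotated start, from RefSeq on GRCm38.p6, and 4 of the 5 genes had one, all but *Col1a1*. They were searched on both strands for the CCAAT box (letters CCAAT), the TATA box (letters TATAAA) and the GC box (letters GGGCGG), and matches are in capitals, a CCAAT on the other strand as ATTGG. The windows are given 5′ to 3′ on the strand of the gene: *Col11a1* at chr3:114030299-114030478 (plus strand), *Col1a2* at chr6:4505438-4505617 (plus), *Col6a1* at chr10:76726045-76726224 (minus) and *Col6a3* at chr1:90844002-90844181 (minus).
Col11a1: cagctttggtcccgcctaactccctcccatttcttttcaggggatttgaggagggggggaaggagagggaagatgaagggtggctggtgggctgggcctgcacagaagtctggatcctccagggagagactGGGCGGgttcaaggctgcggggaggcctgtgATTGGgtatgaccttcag
Col1a2: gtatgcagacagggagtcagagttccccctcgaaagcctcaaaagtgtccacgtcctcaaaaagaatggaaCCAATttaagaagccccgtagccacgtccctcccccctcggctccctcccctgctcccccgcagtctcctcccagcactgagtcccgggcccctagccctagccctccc
Col6a1: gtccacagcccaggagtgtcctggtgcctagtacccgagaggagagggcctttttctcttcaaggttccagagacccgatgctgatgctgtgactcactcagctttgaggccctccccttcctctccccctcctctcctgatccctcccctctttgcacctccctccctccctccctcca
Col6a3: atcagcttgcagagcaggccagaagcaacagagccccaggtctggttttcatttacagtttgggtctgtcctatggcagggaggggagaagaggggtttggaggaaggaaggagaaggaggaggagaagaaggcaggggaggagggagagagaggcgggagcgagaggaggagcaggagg
The *Col11a1* window held GGGCGG beginning 49 bases and CCAAT, reversed, 18 bases upstream of the start, and the *Col1a2* window held CCAAT at 109 bases. None of the 3 motifs was found in the *Col6a1* and *Col6a3* windows, and no matches overlapped. Of 22099 windows of this length, 28.6% held CCAAT, 10.3% TATAAA and 27.2% GGGCGG. The share of G and C was 60.0% in *Col11a1*, 61.7% in *Col1a2*, 60.6% in *Col6a1* and 58.3% in *Col6a3*.

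The remaining fibrillar genes were not called. *Col3a1*, whose product is co-assembled with type I collagen in soft tissue and vessel walls, ran from 7.31 over 7.52 to 7.64 in *G-Smo* tumors, against 7.64, 7.83 and 8.16 in *M-Smo* tumors. Its difference of -0.37 ± 0.09 came close to the threshold (adjusted p 0.0557), and it was called without *M-Smo* replicate 5 (adjusted p 0.0485) and with a median centring of the arrays (adjusted p 0.046). *Col5a1*, whose product starts type I fibrils, had a difference of -0.29 (95% interval -0.47 to -0.12, adjusted p 0.0804), but its second, dim probe set had -0.02 (adjusted p 0.949). *Col5a2*, the partner chain, had 0.13 (-0.12 to 0.38, adjusted p 0.583), and its interval was wide enough to hold either direction. *Col5a3*, *Col24a1* and *Col27a1* lay between -0.07 and 0.04. Over the 11 fibrillar genes, 2 were lower, 1 was higher and the median difference was -0.07.

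No basement membrane gene was called, although 7 of 8 differences were below 0 (median -0.12) in this fit. Before adjustment 3 genes had a limma p below 0.05 (37.5%, against 18.9% of all probe sets). Of these, 2 were lower (25%, against 8.65% of all probe sets) and 1 was higher (12.5%, against 10.2%). *Col4a1* and *Col4a2*, whose products form the type IV network of nearly all basement membranes, had differences of -0.13 (-0.30 to 0.03, adjusted p 0.351) and -0.07 (-0.24 to 0.10, adjusted p 0.666). *Col4a1* ran from 8.26 over 8.50 to 8.63 in *G-Smo* tumors, against 8.52, 8.59 and 8.80 in *M-Smo* tumors, and the ranges overlapped. *Col4a3* and *Col4a4*, known from the basement membrane of the kidney glomerulus, were dim, with differences of -0.07 (adjusted p 0.681) and -0.11 (adjusted p 0.527). *Col4a5* and *Col4a6* lie next to each other on the X chromosome, and high *Xist* was unequally shared between the genotypes. *Col4a5* had a difference of -0.12 (-0.40 to 0.15, adjusted p 0.643). *Col4a6* ran from 5.57 over 5.94 to 6.14 in *G-Smo* tumors, against 6.04, 6.23 and 6.58 in *M-Smo* tumors, a difference of -0.35 ± 0.10 (adjusted p 0.093).

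*Col15a1* and *Col18a1* encode the collagens that link basement membranes to the matrix around them, and their C-terminal fragments are restin and endostatin. *Col15a1* ran from 6.71 over 7.36 to 7.53 in *G-Smo* tumors, against 7.63, 7.77 and 7.89 in *M-Smo* tumors. The ranges did not overlap, but the *G-Smo* tumors were spread widely (SD 0.32, the largest of any collagen in that genotype), and the difference of -0.50 ± 0.13 was not called (adjusted p 0.0578), but it was called without *G-Smo* replicate 4 (adjusted p 0.0492). It was also called with quantile normalization (adjusted p 0.0404), with dim probe sets filtered out (0.0329), with 1-symbol probe sets only (0.0366) and in a robust fit with an intensity trend (0.0465). *Col18a1* ran from 8.41 over 8.51 to 8.76 in *G-Smo* tumors, against 8.25, 8.34 and 8.46 in *M-Smo* tumors, a difference of 0.18 ± 0.07 (adjusted p 0.192). It was the only basement membrane gene with a difference above 0.

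Of the 19 other genes apart from type VI, none was called and 17 differences were below 0 (median -0.10). The 9 fibril-associated genes, which encode collagens that decorate the surface of fibrils, had differences from -0.40 to -0.03. *Col12a1*, the most studied of them in tendon and muscle, had -0.04 (-0.26 to 0.18, adjusted p 0.86), and *Col14a1*, named after its values were seen, had -0.40 ± 0.10 (adjusted p 0.0584) at a dim signal. The 4 genes of transmembrane collagens had differences from -0.24 to -0.07. *Col25a1*, the gene of a transmembrane collagen of neurons whose shed part is found in amyloid plaques, ran from 5.60 over 5.71 to 5.84 in *G-Smo* tumors, against 5.84, 5.92 and 6.15 in *M-Smo* tumors. The ranges met without overlap, and the difference of -0.24 ± 0.07 was not called (adjusted p 0.0915). *Col13a1*, another transmembrane gene named after its values were seen, also had no overlap, with -0.23 ± 0.06 (adjusted p 0.0696), and was called without *M-Smo* replicate 5 (adjusted p 0.0493).

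*Col8a1*, the gene of a lattice-forming collagen of vessel walls and the cornea, varied most. It ran from 5.01 over 5.29 to 5.74 in *G-Smo* tumors, against 4.98, 5.78 and 6.53 in *M-Smo* tumors, so that the *M-Smo* range enclosed the *G-Smo* range. Its difference of -0.42 ± 0.24 had an adjusted p of 0.381. The SD among tumors had a median over the 44 genes of 0.15 in each genotype. It ranged from 0.04 (*Col13a1*) to 0.32 (*Col15a1*) in *G-Smo* tumors and from 0.03 (*Col24a1*) to 0.61 (*Col8a1*) in *M-Smo* tumors.

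Counting separation without a test, the genotypes did not overlap in 9 of the 44 genes, against 3.46% of all probe sets. Of these, 8 were lower and 1 was higher in *G-Smo* tumors, against 1.57% and 1.89% of all probe sets. The 8 were *Col1a1*, *Col1a2*, *Col6a1*, *Col6a2*, *Col6a3*, *Col13a1*, *Col15a1* and *Col25a1*. Before adjustment, 18 collagen genes (40.9%) had a p below 0.05, against 18.9% of all probe sets, and 16 of the 18 were lower (36.4% of the collagens), against 8.65% of all probe sets. Of the 23521 probe sets with 1 gene symbol, 20.4% had such a p, 11.3% as lower. In this set 544 were lower and 490 higher without overlap. The mean of 12 genes was below the 40th percentile of all probe sets, and none of these was called.

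Several collagen genes lie side by side in the genome with no protein-coding gene between them. *Col6a1* and *Col6a2* on chromosome 10 had differences of -0.45 and -0.42. *Col4a1* and *Col4a2* overlap in the annotation and had -0.13 and -0.07. *Col3a1* and *Col5a2* on chromosome 1 had -0.37 and 0.13, so that neighbours did not always lie on the same side of 0.

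The tumors were uneven within each genotype. *G-Smo* replicate 6 had the lowest value of its genotype in 14 of the 44 genes, among them *Col1a1*, *Col1a2*, *Col6a1*, *Col6a2*, *Col6a3*, *Col3a1* and *Col15a1*. It was also the *G-Smo* tumor with the lowest mean of the fibroblast and meninges markers (7.45), of the endothelial markers (8.12) and of the pericyte and smooth muscle markers (7.61), and the 1 *G-Smo* tumor without high *Xist*. Lists that do not mark stroma were lowest in it too, among them collagen hydroxylation and folding (8.54) and cartilage and bone markers (5.60). Among *M-Smo* tumors, replicate 3 had the highest value in 15 genes and the highest mean of the fibroblast and meninges markers (8.189), and replicate 5 the lowest value in 15 genes and the lowest such mean (7.96). Other tumors did not match in this way. *M-Smo* replicate 4 had nearly the same mean (8.188) but the highest value in 4 genes, and replicate 2 the highest in 12 genes at a mean of 8.01. *G-Smo* replicate 1 had the highest mean of its genotype (7.90) and the highest value in 6 genes. The mean over the 11 fibrillar genes ran from 6.87 to 7.02 in *G-Smo* and from 7.02 to 7.11 in *M-Smo* tumors. Over the 8 basement membrane genes it ran from 6.79 to 7.06 in *G-Smo* and from 6.98 to 7.18 in *M-Smo* tumors, which overlapped, and over the 25 others from 6.17 to 6.32 in *G-Smo* and from 6.33 to 6.53 in *M-Smo* tumors.

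**Figure D3:**
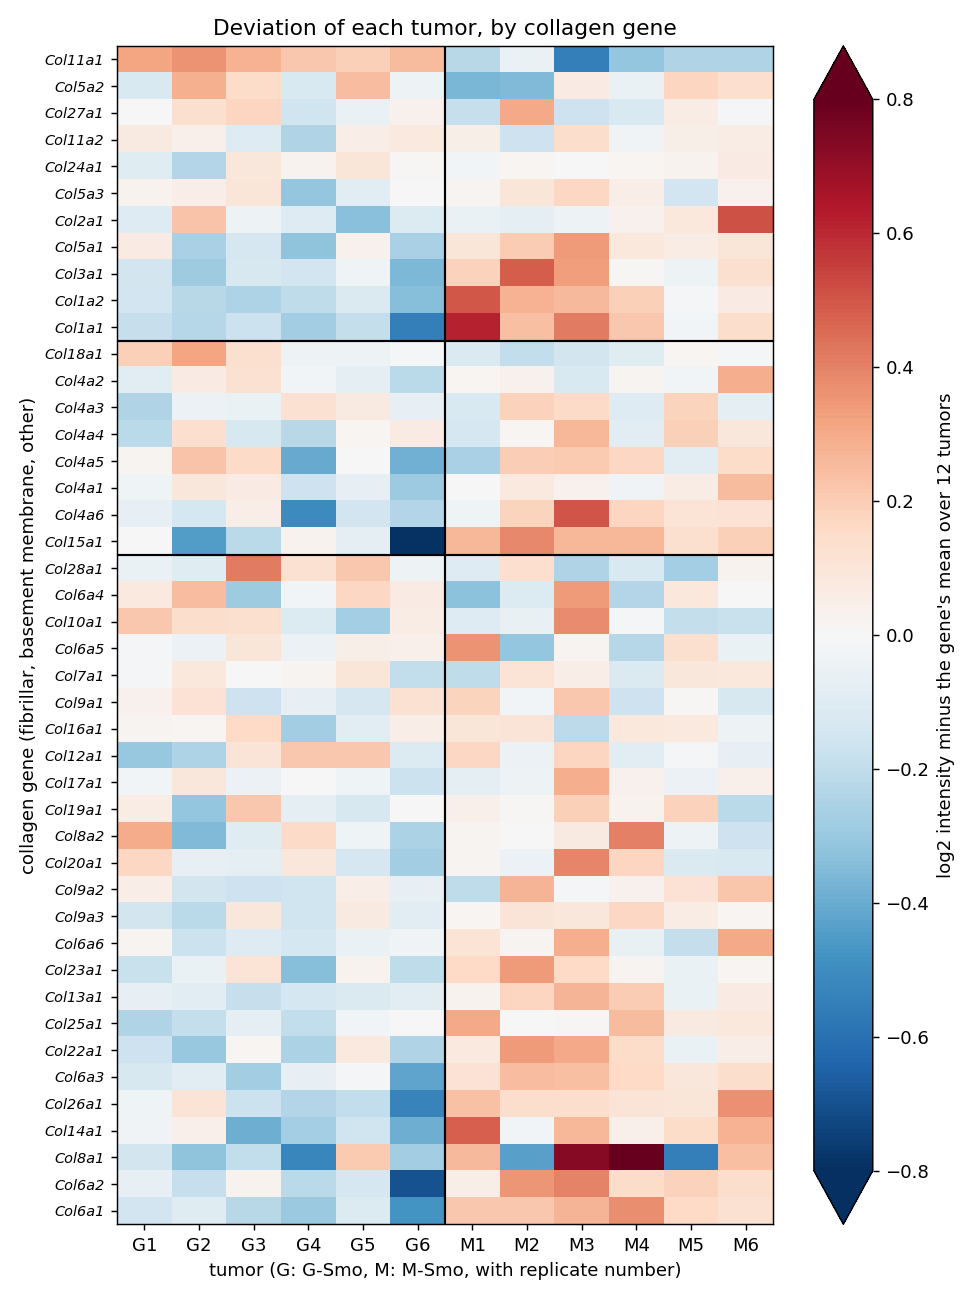
Deviation of each tumor from the mean of the gene over 12 tumors (colour, log2 units, red above and blue below), for 44 collagen genes in rows (fibrillar, basement membrane, other, each from the highest to the lowest difference) and *G-Smo* tumors (G1 to G6, left) and *M-Smo* tumors (M1 to M6, right) in columns. *Col11a1* is red in all 6 *G-Smo* tumors, and the last rows of each group are mostly blue there. In these rows the deepest *G-Smo* tumor is replicate 6 for *Col1a1*, *Col15a1* and *Col6a1*, but replicate 4 for *Col5a1*, *Col4a6* and *Col8a1*.

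Making a collagen molecule needs enzymes and chaperones of the endoplasmic reticulum. Of 18 measured genes of hydroxylation and folding, 1 was lower and none higher in *G-Smo* tumors (median difference 0.08). For this list and those below, the shares called over all probe sets were 1.29% lower and 1.27% higher. The lower gene was *P4ha3*, which encodes an α subunit of prolyl 4-hydroxylase, the enzyme whose product keeps the helix stable at body temperature. It ran from 6.72 over 6.95 to 7.16 in *G-Smo* tumors, against 7.75, 7.90 and 8.28 in *M-Smo* tumors, a difference of -0.996 ± 0.10, or 1.99-fold lower (adjusted p 0.000514). The other α subunits, named after their values were seen, had differences of -0.02 for *P4ha1* (adjusted p 0.918) and -0.15 for *P4ha2* (adjusted p 0.298). *Serpinh1*, the gene of the collagen chaperone HSP47, also named after its values were seen, had 0.18 (0.06 to 0.31, adjusted p 0.117), without overlap between the genotypes.

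Of 13 measured genes of procollagen cleavage and cross-linking, 1 was lower and none higher (median 0.0020), with 6 differences below 0 and 7 above. The lower gene was *Pcolce*, whose product enhances the removal of the procollagen C-propeptide, with 7.13, 7.25 and 7.33 as lowest, median and highest value in *G-Smo* tumors, against 7.54, 7.74 and 8.05 in *M-Smo* tumors. Its difference was -0.51 ± 0.08 (adjusted p 0.00874). Among those above 0, named after their values were seen, were *Tll1* with 0.32 (adjusted p 0.0709) and *Adamts14* with 0.28 (adjusted p 0.123). Of 13 genes of collagen degradation and uptake, 2 were lower and none higher (median -0.11). Both encode inhibitors of metalloproteinases, *Timp3* with -0.43 ± 0.09 (adjusted p 0.0256) and *Timp4* with -0.27 ± 0.06 (adjusted p 0.0328). *Timp3* lost its call without *G-Smo* replicate 2 or 5 or *M-Smo* replicate 4 (highest adjusted p 0.0613), and *Timp4* kept it in 4 of 12 fits with 1 tumor left out, those without *G-Smo* replicate 1 or 2 or *M-Smo* replicate 3 or 5 (highest adjusted p 0.0737). *Timp4* was also not called with the sex-linked score in the fit.

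Of 10 measured collagen receptor genes, 3 were lower and none higher (median -0.04), with 7 differences below 0 and 3 above. Among the latter was *Ddr2*, named after its values were seen, with 0.24 ± 0.06 (adjusted p 0.0732) and no overlap between the genotypes. *Itga11*, the α chain of a collagen-binding integrin of fibroblasts, ran from 5.60 over 5.75 to 5.92 in *G-Smo* tumors, against 6.07, 6.27 and 6.34 in *M-Smo* tumors, a difference of -0.47 ± 0.07 (adjusted p 0.00874). *Adgrg6*, an adhesion receptor that binds type IV collagen, had -0.39 ± 0.07 (adjusted p 0.0196) and *Itga2*, the α chain of another collagen-binding integrin, -0.54 ± 0.13 (adjusted p 0.0421). *Itga2* lost its call in 10 of the 12 fits with 1 tumor left out, all but those without *G-Smo* replicate 4 or *M-Smo* replicate 2 (highest adjusted p 0.0903), and also with the methods' test, and *Adgrg6* lost its call with the sex-linked score in the fit.

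Of 17 measured genes whose products share the basement membrane with type IV collagen, 4 were lower and none higher (median -0.13). They were the laminin chain genes *Lama3* with -0.40 ± 0.07 (adjusted p 0.0122), *Lama1* with -0.47 ± 0.08 (adjusted p 0.0161) and *Lamb1* with -0.33 ± 0.06 (adjusted p 0.0215), and *Nid2*, whose product bridges laminin and type IV collagen, with -0.45 ± 0.08 (adjusted p 0.0191). *Lama1* ran from 7.83 over 8.07 to 8.38 in *G-Smo* tumors, against 8.43, 8.55 and 8.66 in *M-Smo* tumors. *Lamb1* lost its call without *G-Smo* replicate 5 (adjusted p 0.0503) and with the sex-linked score in the fit. *Lama5*, named after its values were seen, had 0.46 ± 0.13 (adjusted p 0.0848).

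**Figure D4:**
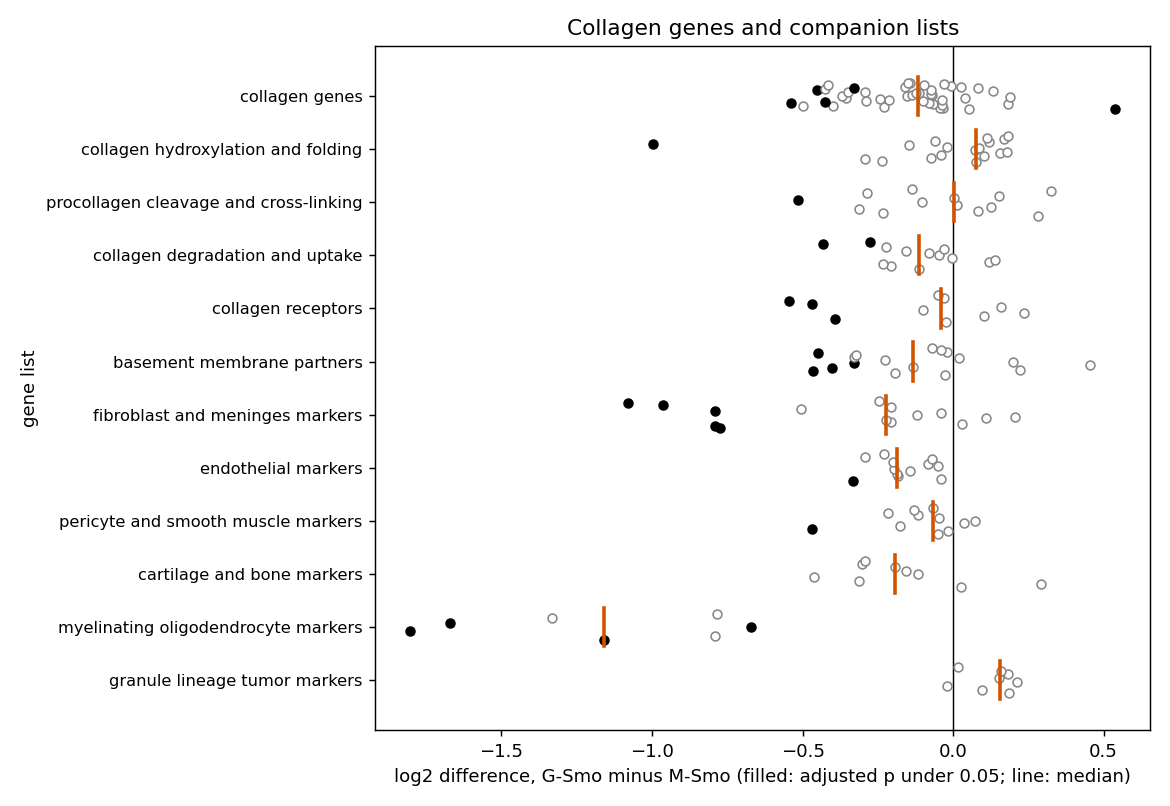
Log2 difference (*G-Smo* minus *M-Smo*, horizontal axis) of each measured gene in the 44 collagens and in 11 companion lists (vertical axis), filled where the adjusted p was below 0.05, with the median of each list as an orange line. The filled points lie below 0 in every list that holds any, except for *Col11a1* among the collagens.

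Some markers of stromal cells also differed between the genotypes, in lists chosen with earlier results of these data known. Of 15 fibroblast and meninges markers, 5 were lower and none higher in *G-Smo* tumors (median -0.22), against 1.29% and 1.27% of all probe sets. The difference was below 0 for 12 of the 15 and above 0 for 3. Those 3, named after their values were seen, were *Igf2* with 0.21, *Foxd1* with 0.11 and *Fmod* with 0.03. The mean over the list was 7.45 to 7.90 in *G-Smo* and 7.96 to 8.19 in *M-Smo* tumors. The smallest adjusted p belonged to *Slc6a13* and *Slc22a6*, transporters of the meninges, with -1.08 ± 0.11 (adjusted p 0.000377) and -0.96 ± 0.12 (adjusted p 0.0028), and to *Dcn* and *Lum*, proteoglycans that bind collagen fibrils, with -0.79 ± 0.11 (adjusted p 0.00399) and -0.79 ± 0.13 (adjusted p 0.0121). *Dcn* ran from 8.96 over 9.41 to 9.67 in *G-Smo* tumors, against 10.0, 10.2 and 10.3 in *M-Smo* tumors. Their part in the collagen differences was not tested, and in bulk RNA fewer cells of a type and less RNA per cell cannot be told apart.

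Of 12 endothelial markers 1 was called as lower, *Cdh5* with -0.33 ± 0.06 (adjusted p 0.0137), and all 12 differences were below 0 (median -0.19). Before adjustment 6 of these markers had a limma p below 0.05, all lower (50%, against 8.65% of all probe sets). The list mean was 8.12 to 8.31 in *G-Smo* and 8.30 to 8.51 in *M-Smo* tumors. Of 11 pericyte and smooth muscle markers 1 was called as lower, *Anpep* with -0.47 ± 0.08 (adjusted p 0.0137), and 9 differences were below 0 (median -0.07). Their list mean was 7.61 to 7.85 in *G-Smo* and 7.79 to 7.91 in *M-Smo* tumors. None of 9 cartilage and bone markers was called, with a list mean of 5.60 to 5.80 in *G-Smo* and 5.68 to 5.98 in *M-Smo* tumors, and 7 of them, *Acan* among them, were below the 40th percentile. The smallest adjusted p in that list were 0.0877 for *Sp7*, with a difference of -0.29, and 0.0963 for *Sox9*, with -0.30. With most of the list dim, it cannot show whether cartilage cells differed, and their part in the *Col11a1* difference was not tested. Of 7 myelinating oligodendrocyte markers 4 were lower (median -1.16), with a list mean of 7.29 to 8.48 in *G-Smo* and 8.62 to 10.3 in *M-Smo* tumors. All 7 differences were below 0, and before adjustment all 7 had a limma p below 0.05 (100%, against 8.65% of all probe sets in this direction). None of these markers was called without *G-Smo* replicate 2, 3, 5 or 6 or *M-Smo* replicate 4, 5 or 6, with the methods' test or with the sex-linked score in the fit. The parts of these cells in the collagen differences were not tested either.

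In the 5 *G-Smo* and 2 *M-Smo* tumors with high *Xist*, an alternative added after seeing the data, the differences were 0.51 for *Col11a1*, -0.59 for *Col1a1*, -0.47 for *Col1a2*, -0.34 for *Col6a1* and -0.24 for *Col6a3*, and none was called, with 20 of all probe sets called. With the sex-linked score in the fit, *Col1a1* (-0.66, adjusted p 0.0183), *Col1a2* (-0.49, adjusted p 0.0348), *Col6a1* (-0.49, adjusted p 0.0304) and *Col11a1* (0.52, adjusted p 0.0256) remained called.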

How the data were processed

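Untreated P15 medulloblastomas were flash frozen, and total RNA was purified and hybridized to Affymetrix Mouse Gene 2.1 ST arrays. The authors deposited log2 intensities, 1 per probe set and array, made by RMA, which subtracts background, equalizes the distributions of the arrays and combines the probes. The submitters' notes name Partek and RMA, with versions not given in the sources used here. RMA can shrink differences of dim genes, and probe sets of near-identical genes can share signal.

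The platform annotation, which can be old, gave 1 symbol to 23521 probe sets, and probe sets naming several genes were left out, including 1 that names a collagen. All 44 collagen genes were found in RefSeq by gene ID. The genotypes were compared with lmFit and eBayes of limma 3.58.1 in R 4.3.3 over the 12 untreated arrays, two-sided, with no filter. The methods name a 1-way test between genotypes, which was run as an alternative. The step was tested on simulated data. Alternatives were median centring, quantile normalization (statmod 1.5.0 served the robust fit), an intensity filter, other sets of probe sets, limma's trend and robust settings, a block for the replicate number, a sex-linked score (the mean of Y-linked genes minus *Xist*) in the fit, each tumor left out, and the tumors with high *Xist*. Of 147 genes in 13 lists, 137 had a probe set of their own. Figures were drawn with matplotlib 3.10.9.

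The collagen genes and the lists were chosen with earlier results of these data known. Given in full are the collagens past the threshold, a list of well-known collagens, and of each companion list up to 4 members past the threshold with the smallest adjusted p, or the 2 with the smallest adjusted p where none passed. Genes outside this rule are said to be.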

Additional observations from a re-analysis of the deposited data

Results flagged for a closer look

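In 7 of 88 groups, each of 6 tumors for 1 collagen gene and 1 genotype, the highest or lowest tumor stood apart from the others by Dixon's ratio, where chance gives about 1 in 20 groups. *G-Smo* replicate 6 was the low tumor in 3 of them, with a log2 intensity of 7.65 in *Col1a1* (the other 5 from 7.92 to 8.02), 6.93 in *Col6a2* (7.41 to 7.66) and 6.08 in *Col7a1* (6.27 to 6.38). *M-Smo* replicate 6 was the high tumor in *Col2a1* with 7.37 (6.79 to 6.94) and in *Col4a1* with 8.80 (8.52 to 8.62). *M-Smo* replicate 3 was the high tumor in *Col10a1* with 5.62 (5.05 to 5.23) and in *Col17a1* with 6.22 (5.85 to 5.97).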

How the results depend on the processing

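*Col11a1* was called in all alternatives but the tumors with high *Xist*, and *Col1a1* and *Col6a1* in all but these and the replicate block. Reported were 4 collagens lower, 1 higher, 1057 probe sets and 22 genes of the companion lists. The lower collagens numbered 8 with quantile normalization, 11 with a filter at the 40th percentile (1881 probe sets) and 10 with 1-symbol probe sets only, with adjusted p of the genes gained of 0.0298 to 0.0492, and *Col11a1* was the 1 higher collagen in each. With the filter at the 40th percentile, 1 gene was called as higher in each of the procollagen cleavage, receptor, basement membrane partner and granule lineage lists. With the sex score, 420 probe sets, 5 lower collagens (*Col14a1* and *Col26a1* gained, *Col6a3* lost) and 14 list genes were called. With the methods' test, 17 list genes were, without *Itga2* and the oligodendrocyte markers. In tumors with high *Xist* (5 *G-Smo*, 2 *M-Smo*), 20 probe sets, 0 lower and 0 higher collagens and 0 list genes were. With 1 tumor left out, 367 to 942 probe sets, 2 to 5 lower collagens, 1 higher collagen and 13 to 22 list genes were called. Probe sets numbered 609, 503, 367 and 452 without *G-Smo* replicate 2, 3, 5 and 6, and 676 and 596 without *M-Smo* replicate 5 and 6. List genes numbered 13 without *G-Smo* replicate 5 and 14 without *M-Smo* replicate 4, and lower collagens 2 without *G-Smo* replicate 6. *Col26a1* was called without *G-Smo* replicate 2 (adjusted p 0.0449). The causes were not tested.

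Deviations of same-numbered tumors correlated from -0.138 to 0.114, and the same number gave the best match for replicate 1 only. The labels do not say whether the replicate number marks a batch or a litter. With the number as a block, 113 probe sets, 0 lower collagens, 1 higher collagen (*Col11a1*, adjusted p 0.0379) and 4 list genes were called, and *Col6a1* had an adjusted p of 0.0639, *Col1a1* 0.0655, *Col1a2* 0.0733 and *Col6a3* 0.117.

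Signs changed for 13 genes with differences of at most 0.12 in size, never called. In tumors with high *Xist* the values were 0.069 for *Col4a3*, 0.058 for *Col4a5*, -0.14 for *Col6a5*, 0.10 for *Col7a1*, 0.065 for *Col8a2*, 0.012 for *Col17a1*, 0.039 for *Col19a1* and 0.048 for *Col20a1*, and with the sex score -0.047 for *Col6a5*. With 1 tumor left out they ran from -0.033 to 0.10 for *Col6a5*, -0.047 to 0.033 for *Col7a1*, -0.068 to 0.0090 for *Col9a1*, -0.069 to 0.012 for *Col11a2*, -0.091 to 0.013 for *Col12a1*, -0.084 to 0.014 for *Col16a1* and -0.058 to 0.0077 for *Col24a1*. For the 12 dim collagens, signal over background limits what a difference can show.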
